A study of Mus musculus with 107 samples.

Results

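The MHC class I antigen presentation genes were followed by RNA sequencing of bulk tumors in 12 mouse syngeneic tumor models with and without lenvatinib (LEN), an oral multikinase inhibitor of the VEGF and FGF receptors. The members were chosen by gene symbol: H2-K1, H2-D1, H2-T23, B2m, Tap1, Tap2, Tapbp, Psmb8, Psmb9 and Nlrc5. All 10 had a row among the 50686 genes of the expression table. The data comprised 107 tumors in 36 groups, that is, 3 groups in each model. Base tumors were taken without treatment once they reached about 100 mm3 (n = 35). NT tumors were left untreated and collected on day 8 (n = 36). LEN tumors received lenvatinib at 10 mg/kg orally once daily for 7 days and were also collected on day 8 (n = 36). Each group held 3 tumors, except Base in MC38 with 2. All tumors grew under the skin of the right flank of mice implanted at 7 weeks of age. The BALB/cAnNCrlCrlj hosts carried BNL 1ME A.7R.1 (BNL, liver), RAG (kidney, an in vivo adapted line), 4T1 (breast), CT26.WT (CT26, colorectum), EMT6 (breast) and Renca (kidney). The C57BL/6NCrl hosts carried MC38 (colorectum) and B16-F10 (melanoma), and the C57BL/6JCrl hosts carried LL/2 (lung). Hepa 1-6 (Hepa, liver) grew in C57L/J, MBT2 (bladder) in C3H/HeNCrl and KLN205 (lung) in DBA/2NCrl mice. Per the study, the hosts of BNL and Hepa were male and those of all other models female. Each model was a single cell line in a single host strain and sex, so line, tumor type, strain and sex cannot be told apart within a model.

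MHC class I molecules display short peptides cut from the cell's own proteins to CD8 T cells. The peptides are released by the proteasome, pumped into the endoplasmic reticulum by the transporter TAP, and loaded there with the help of tapasin onto a heavy chain bound to beta-2 microglobulin. Interferon gamma from T cells and NK cells is a known inducer of the whole pathway, and tumors with low class I levels are known to be poorly seen by CD8 T cells. H2-K1 and H2-D1 encode the classical heavy chains, which are highly polymorphic between strains. H2-T23 encodes Qa-1, a nonclassical heavy chain recognised by NKG2A receptors. BALB/c and DBA/2 mice carry the H2-d haplotype, C57BL/6 and C57L mice H2-b, and C3H mice H2-k, whereas the reads were mapped to the C57BL/6J genome, which is H2-b.

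The members lie in few places in the mouse genome (GRCm38, GENCODE annotation), and all are protein-coding. From low to high coordinate on chromosome 17, Tapbp spans 33915899 to 33929292 on the plus strand and H2-K1 spans 33996017 to 34000347 on the minus strand. Psmb9 (34181987 to 34187764, minus), Tap1 (34187553 to 34197225, plus), Psmb8 (34197721 to 34201454, plus) and Tap2 (34203527 to 34216321, plus) stand next to each other. H2-D1 spans 35262730 to 35267499 on the plus strand and H2-T23 spans 36029773 to 36032855 on the minus strand. Outside the H2 region, B2m lies on chromosome 2 (122147686 to 122153083, plus) and Nlrc5 on chromosome 8 (94434356 to 94527272, plus). Psmb9 and Tap1 overlap on opposite strands, and whether reads were counted by strand was not given in the sources used here. The promoters of the chains that form the class I molecule, and of the shared Tap1 and Psmb9 start region, are shown because the results turn on these genes. Each window runs from 250 bases before to 50 bases after the RefSeq start site (GRCm38.p6), written 5′ to 3′ on the gene's strand. Capitals mark matches to TTTCNNTT, core letters of the interferon-stimulated response element, and to CCAAT, on either strand. The windows are chr2:122147437-122147736 (B2m, plus), chr17:34000298-34000597 (H2-K1, minus), chr17:35262844-35263143 (H2-D1, plus), chr17:36032652-36032951 (H2-T23, minus) and chr17:34187306-34187605 (Tap1, plus).
B2m: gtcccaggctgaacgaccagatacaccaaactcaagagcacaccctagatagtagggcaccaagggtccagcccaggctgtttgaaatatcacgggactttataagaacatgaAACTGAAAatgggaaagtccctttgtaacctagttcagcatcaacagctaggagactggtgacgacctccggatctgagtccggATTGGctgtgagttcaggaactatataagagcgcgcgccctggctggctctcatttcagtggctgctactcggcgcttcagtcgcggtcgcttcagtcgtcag
H2-K1: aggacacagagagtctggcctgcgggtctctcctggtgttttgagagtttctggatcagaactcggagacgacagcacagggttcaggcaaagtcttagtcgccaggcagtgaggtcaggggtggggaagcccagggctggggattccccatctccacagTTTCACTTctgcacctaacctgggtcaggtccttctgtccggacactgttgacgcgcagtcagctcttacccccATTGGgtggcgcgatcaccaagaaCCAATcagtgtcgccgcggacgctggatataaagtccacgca
H2-D1: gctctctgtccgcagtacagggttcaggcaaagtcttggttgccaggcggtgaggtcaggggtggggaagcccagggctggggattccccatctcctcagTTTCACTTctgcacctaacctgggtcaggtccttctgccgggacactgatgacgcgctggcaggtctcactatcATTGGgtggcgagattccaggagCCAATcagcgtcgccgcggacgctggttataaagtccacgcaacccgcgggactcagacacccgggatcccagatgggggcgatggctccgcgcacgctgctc
H2-T23: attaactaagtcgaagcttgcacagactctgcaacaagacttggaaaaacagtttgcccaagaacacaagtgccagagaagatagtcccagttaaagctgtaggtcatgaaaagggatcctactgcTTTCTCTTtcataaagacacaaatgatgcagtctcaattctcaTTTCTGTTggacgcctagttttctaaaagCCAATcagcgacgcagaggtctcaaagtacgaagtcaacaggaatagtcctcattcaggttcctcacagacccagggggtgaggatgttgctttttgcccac
Tap1: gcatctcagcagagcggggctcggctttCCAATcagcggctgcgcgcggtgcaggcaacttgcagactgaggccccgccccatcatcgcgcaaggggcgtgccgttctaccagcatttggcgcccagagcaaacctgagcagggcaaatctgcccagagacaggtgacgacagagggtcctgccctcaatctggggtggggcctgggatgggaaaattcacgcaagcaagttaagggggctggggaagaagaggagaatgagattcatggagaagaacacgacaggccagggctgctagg

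Of the 10 members, 8 had a RefSeq promoter entry, and Tap2 and Nlrc5 are named only. TTTCNNTT was present in 4 of the 8, which were B2m, H2-K1, H2-D1 and H2-T23, against 23.9% of 32851 promoters. Its first base stood 137 bases before the start in B2m (-137), at -90 in H2-K1, at -150 in H2-D1 and at both -124 and -81 in H2-T23. CCAAT was present in 7 of the 8, against 37.4% of promoters. TGACG, part of the cyclic AMP response element, was present in 5 of the 8 against 20.8%. TTCNNNGAA, the letters of a gamma-activated site, was present in 1 (Psmb8) against 8.30%. The H2-K1 and H2-D1 windows shared an identical run of 47 bases, whereas the longest run shared by H2-K1 and H2-T23 was 8 bases. The Tap1 window overlaps the Psmb9 window (chr17:34187281-34187580, minus). Their CCAAT match is the same site, as is their TGACG match, so each of these sites is counted for both genes. A match describes the letters only.

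The values are TPM (transcripts scaled to a constant sum and by gene length, so levels of different genes can be compared). The table gives no read counts, and the depth of each tumor is unknown. Of the 107 tumors, 107 had a tumor of their own model as nearest neighbour, and 95 a tumor of their own group. The most abundant gene took 6.89% to 24.2% of a tumor's TPM. Lineage markers followed the labels of B16-F10 and Hepa. The summed TPM of 4 melanocyte markers was 8138 to 8305 in B16-F10 Base tumors and at most 2.91 in other models, and hepatocyte lineage markers summed to 3832 to 3944 TPM in Hepa. They summed to only 0.14 to 0.65 TPM in BNL, which is labelled as liver. Epithelial markers were low in CT26 (5.31 to 8.36 TPM), MBT2 (4.19 to 5.84 TPM) and MC38 (9.26 to 9.67 TPM). In bulk tumors, fewer cells of a type and less RNA per cell cannot be told apart.

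All members were detected in every tumor, with 0 of 1070 values at 0, and together they took 0.0316% to 0.694% of a tumor's TPM. B2m, the light chain shared by all class I molecules, was the most abundant, with a median of 1298 TPM over 107 tumors (range 104 to 3008). H2-D1 had a median of 512 TPM (59.4 to 1562) and H2-K1 of 272 TPM (27.0 to 1549). The tapasin gene Tapbp (median 173 TPM, 22.7 to 462) and the immunoproteasome subunit Psmb8 (119 TPM, 6.19 to 385) were intermediate. H2-T23 (66.1 TPM, 8.25 to 300.2), Tap1 (56.5 TPM, 8.50 to 234), Nlrc5 (50.2 TPM, 1.42 to 141), Psmb9 (43.9 TPM, 4.17 to 145) and Tap2 (41.6 TPM, 4.51 to 115) were the least abundant. Some RNA of these genes can be credited to near-identical copies. The share of 50-base words that a member's transcripts have in common with another gene was 9.63% for H2-K1, 12.8% for H2-D1 and 13.6% for H2-T23, at most 2.87% for the transporter, tapasin and proteasome genes, and 0 for B2m, Psmb9 and Nlrc5.

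Before treatment, class I genes differed over a wide range between models. They were highest in Hepa and MC38 and lowest in KLN205, and the lung model LL/2 and the melanoma B16-F10 were also low. The members' mean level on the log2(TPM + 1) scale was 8.29 in Hepa, 8.23 in MC38, 7.48 in CT26, 7.38 in RAG, 7.19 in MBT2, 7.04 in Renca, 7.00 in EMT6, 6.43 in 4T1, 5.82 in BNL, 5.49 in B16-F10, 5.43 in LL/2 and 4.32 in KLN205. Hepa was among the 2 highest models for 9 members and MC38 for 9, and KLN205 was among the 2 lowest for all 10. In limma's F test over the 35 Base tumors, 10 of 10 members differed between models (adjusted p from 6.65e-17 for H2-D1 to 1.72e-10 for Tap1), against 93.6% of all genes tested. A difference between models was thus common to nearly every gene.

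**Figure D1:**
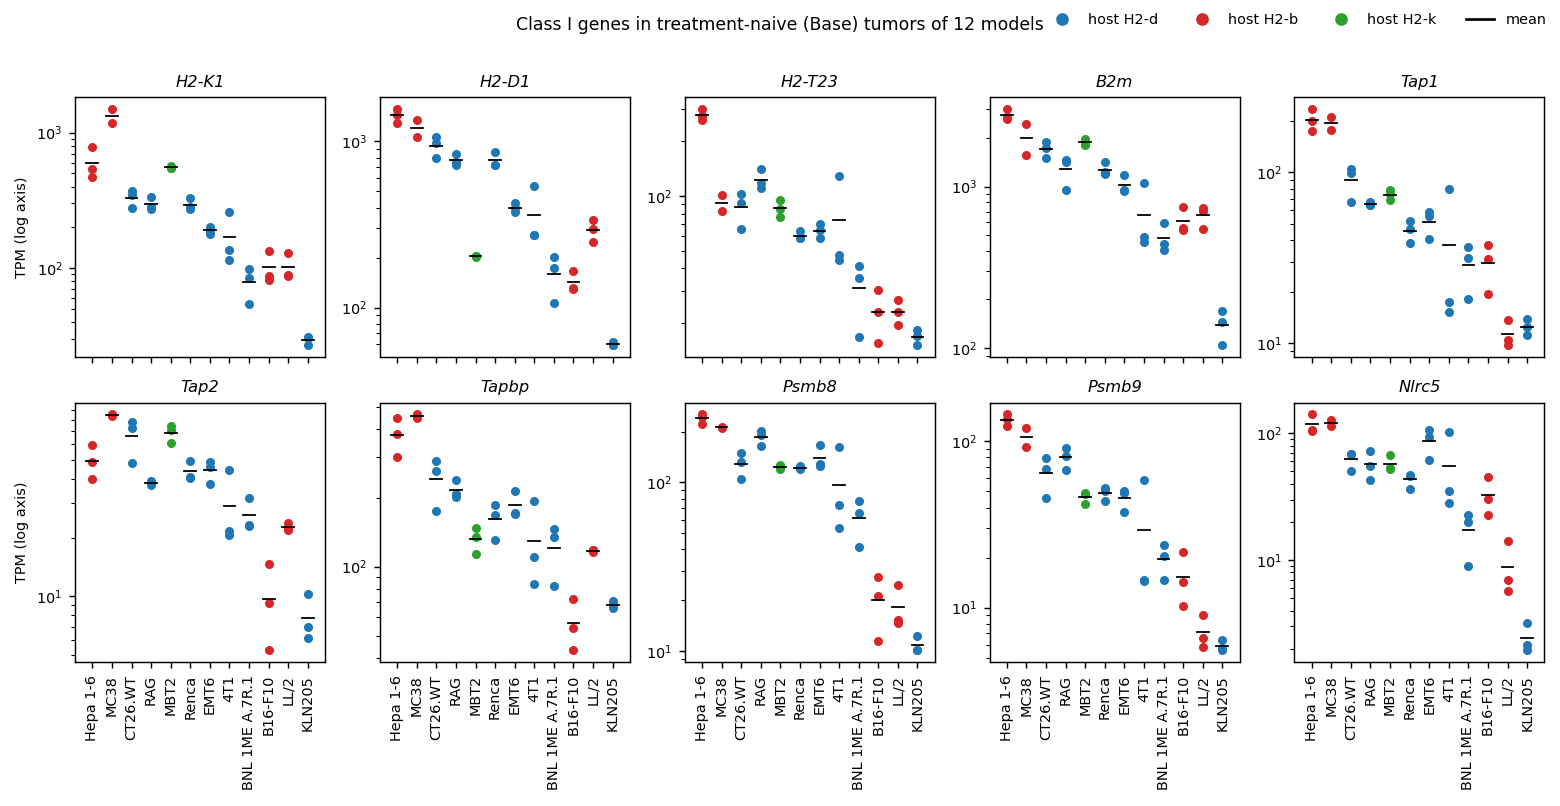
Base level of each member in TPM (log axis, a panel for each gene) for every tumor, by model, with the group mean as a bar and colour for the H2 haplotype of the host strain. KLN205 was among the 2 lowest models in all 10 panels, and Hepa and MC38 were each among the 2 highest in 9.

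Among the chains of the class I molecule, H2-K1 spanned the wider range. Its Base values were 1488 and 1179 TPM in MC38, 536, 474 and 787 TPM in Hepa, and 27.0, 31.2 and 30.5 TPM in KLN205. The MC38 mean of 1333 TPM was 45.1-fold the KLN205 mean of 29.6 TPM, and no tumor of these models overlapped. H2-D1 was highest in Hepa with 1440.1, 1298 and 1562 TPM and lowest in KLN205 with 59.5, 62.2 and 59.4 TPM, a 23.7-fold difference of means. H2-T23 was 275, 260.5 and 300.2 TPM in Hepa, against 17.0, 15.1 and 18.4 TPM in KLN205 (16.5-fold between means). B2m was 2632, 2681 and 3008 TPM in Hepa and 104, 169 and 145 TPM in KLN205, a 19.9-fold difference of means. The KLN205 tumors were therefore low in both heavy chains and the light chain, without overlap with Hepa. Adjacent models in the order were often not separated. The tumor ranges of neighbours did not overlap for 4 of 11 neighbouring pairs for H2-K1, 5 for H2-D1, 3 for H2-T23 and 4 for B2m.

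The peptide transporter and loading genes followed a similar order. Tap1, the first subunit of TAP, was 199.9, 174 and 234 TPM in Hepa and 13.6, 10.5 and 9.76 TPM in LL/2, 17.9-fold apart in the mean. Tap2, the second subunit, ranged less, from 84.5 TPM in MC38 to 7.76 TPM in KLN205 (10.9-fold). Tapbp had the smallest range, from 454 TPM in MC38 to 56.6 TPM in B16-F10 (8.02-fold). In Hepa the TAP subunits were unequal in rank, since Hepa was first for Tap1 but its Tap2 mean was 49.4 TPM, below MC38, MBT2 and CT26. Psmb8 and Psmb9 encode catalytic subunits that replace Psmb5 and Psmb6 in the immunoproteasome. Psmb8 was 239 TPM in Hepa and 10.8 TPM in KLN205 (22.1-fold), and Psmb9 was 135 TPM and 5.87 TPM. The ratio of Psmb8 to Psmb5 was 3.34 in Hepa, 0.186 in B16-F10 and 0.182 in KLN205, and that of Psmb9 to Psmb6 was 0.804 in Hepa and 0.0566 in KLN205. Nlrc5, the class I transactivator, had the widest range of all members. Its values were 128 and 114 TPM in MC38 and 2.13, 3.18 and 1.94 TPM in KLN205, a 50.2-fold difference of means. Within 4T1, Base tumor 1 stood apart from the other 2 tumors, with Tap1 at 80.0 TPM against 17.4 and 15.3 TPM and B2m at 1048 TPM against 456 and 485 TPM.

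Across the 12 Base means, the 45 pairs of members had Pearson r between 0.740 and 0.960 (median 0.859), given as a description of 12 models that share reference, assay and mixture of cells. By Pearson r with the mean of the members over the 12 models, the 8 most similar of 17532 genes were H2-T22 (0.972), Samhd1 (0.967), Psme2b (0.954), Fgl2 (0.939), Lck (0.937), Sp100 (0.933), Stat2 (0.932) and Parp14 (0.931). Of these 8, 6 stayed among the first 8 without H2-K1 and H2-D1 in the mean, but only 2 by Spearman's rho. H2-T22 is a further class I heavy chain, Lck is a T cell kinase and Stat2 carries interferon signals. Marker genes of T cells and leukocytes moved with these levels only in part. By Pearson r with the mean of the members, Cd3e ranked 131 (0.827), Ptprc 171 (0.810) and Cd8a 400 (0.736). The 8 T cell markers summed to 106 to 171 TPM in Hepa Base tumors, 31.5 to 34.1 in MC38, 15.2 to 39.7 in CT26, 4.17 to 4.78 in KLN205, 4.45 to 7.39 in B16-F10 and 4.88 to 10.2 in LL/2. Ptprc, the leukocyte antigen CD45, was 81.4 to 129 TPM in Hepa, 24.2 to 34.7 in KLN205 and 9.38 to 13.6 in B16-F10. KLN205 thus had more Ptprc than B16-F10, although its class I levels were lower. The 7 macrophage markers did not rank with the members, since LL/2 was low in class I genes but held 744 to 982 TPM of them and B16-F10 held 159 to 207 TPM. The part of these cells in the class I levels was not tested.

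The host haplotype did not separate the models. Model means of H2-K1 at Base were 29.6 to 331 TPM in the 7 H2-d models, 101 to 1333 TPM in the 4 H2-b models and 554 TPM in the H2-k model MBT2. H2-D1 was 60.4 to 941 TPM in H2-d, 143 to 1434 TPM in H2-b and 203 TPM in MBT2. B2m, which is outside the H2 region, was 139 to 1706 TPM in H2-d, 610 to 2774 TPM in H2-b and 1880 TPM in MBT2. With the model as replicate, the H2-d minus H2-b difference on the log2(TPM + 1) scale was -0.95 (SE 0.82, limma adjusted p = 0.650) for H2-K1, -0.54 (SE 0.83) for H2-D1 and -0.73 (SE 0.67) for B2m. Limma called 0 of 10 members (adjusted p from 0.650 to 0.995, and 0 at an unadjusted p under 0.05), against 0.324% of genes called higher and 0.21% called lower. With SEs of 0.54 to 0.92, differences below several fold were not detectable. For 6 of the members, H2-T23, Tap2, Tapbp, Psmb8, Psmb9 and Nlrc5, the sign turned when a model was left out. Among 11 other class I heavy chain genes tested, H2-Q2 alone was called (2.47 higher in H2-d, SE 0.47, adjusted p = 0.0433).

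The classical heavy chains were also compared with each other within each tumor. The ratio of H2-D1 to H2-K1 TPM at Base was between 2.02 and 2.84 in all 7 H2-d models, although H2-D1 itself varied from 60.4 to 941 TPM among them. In the H2-b models it was 0.903 in MC38, 1.44 in B16-F10, 2.47 in Hepa and 2.91 in LL/2. In MBT2 it was 0.367, with its 3 Base tumors between 0.357 and 0.374. The H2-b ratios thus ran from below to above the H2-d ratios, and MBT2 was lowest. In the day 8 tumors the ratios of the H2-d models and MBT2 were similar to Base. Hepa differed, with a ratio of 2.47 at Base and 3.82 in NT, where it was the highest H2-b model. The H2-d models ranged from 2.15 to 2.76 in NT and from 1.99 to 2.80 in LEN, the H2-b models from 0.892 to 3.82 and from 0.919 to 3.10, and MBT2 stood at 0.366 and 0.370. H2-k and H2-d alleles differ from the H2-b reference, and how that changed the reads credited to H2-K1 and H2-D1 was not tested. MBT2 also had the most B2m per H2-D1 (ratio 9.25), while the ratio of B2m to H2-K1 ran from 1.49 in MC38 to 6.60 in LL/2.

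**Figure D2:**
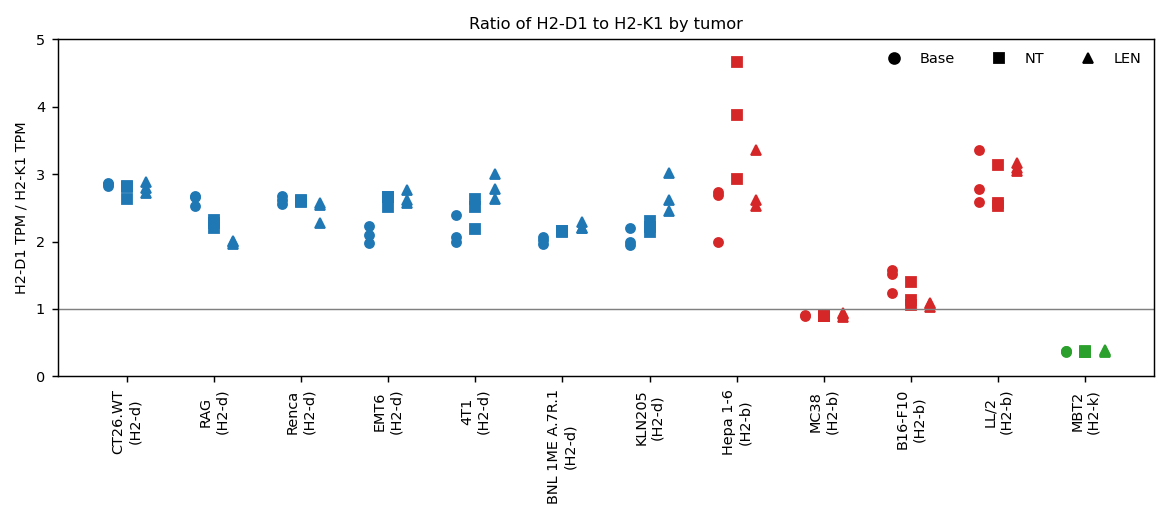
Ratio of H2-D1 TPM to H2-K1 TPM in each tumor by model (linear axis), ordered by the H2 haplotype of the host. Circles stand for Base, squares for NT and triangles for LEN, with a line at 1. The 7 H2-d models lie near 2 to 3, the 4 H2-b models spread from below 1 to above 3, and MBT2 lies near 0.37.

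Lenvatinib-treated tumors had more class I RNA than untreated tumors of the same day. On average over the 12 models, all 10 members were higher in LEN than in NT (limma, Benjamini-Hochberg adjusted p from 1.89e-07 for H2-D1 to 0.0453 for B2m), against 13.7% of 17351 genes called higher and 9.87% called lower. H2-T23 rose the most, by 0.60 on the log2(TPM + 1) scale (SE 0.10, 1.51-fold, adjusted p = 6.05e-06), and was above 0 in 10 of 12 models. H2-K1 rose by 0.45 (SE 0.08, 1.37-fold, above 0 in 9 models) and H2-D1 by 0.45 (SE 0.06, above 0 in 11 models). Tap1 rose by 0.50 (SE 0.10), Tap2 by 0.45 (SE 0.08) and Tapbp by 0.39 (SE 0.08). Psmb8 rose by 0.38 (SE 0.11), Psmb9 by 0.34 (SE 0.10) and Nlrc5 by 0.28 (SE 0.10). B2m rose the least, by 0.21 (SE 0.08, 1.16-fold). The median of the members was 0.42, against -0.00 for all genes. The p-values measure the spread between tumors, of which each group held 3.

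B16-F10 carried a large share of this average. Without it, 6 of 10 members were called higher, against 10.8% of genes, and the median was 0.29. H2-K1 (0.31), H2-D1 (0.32), H2-T23 (0.40), Tap1 (0.33), Tap2 (0.31) and Tapbp (0.27) remained among the calls. B2m (0.11, limma adjusted p = 0.386), Psmb8 (0.18, 0.155), Psmb9 (0.16, 0.206) and Nlrc5 (0.12, 0.382) did not pass. B2m passed in only 4 of the 12 fits that left out a model and in 31 of the 72 that left out a tumor, with values between 0.11 and 0.28. The response differed between models for 10 of 10 members in the F test (adjusted p from 1.44e-04 for H2-T23 to 0.0201 for B2m), against 35.3% of genes. Without B16-F10, limma's F test called 0 of 10 (2 at an unadjusted p under 0.05, smallest adjusted p = 0.0671), against 29.8% of genes.

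**Figure D3:**
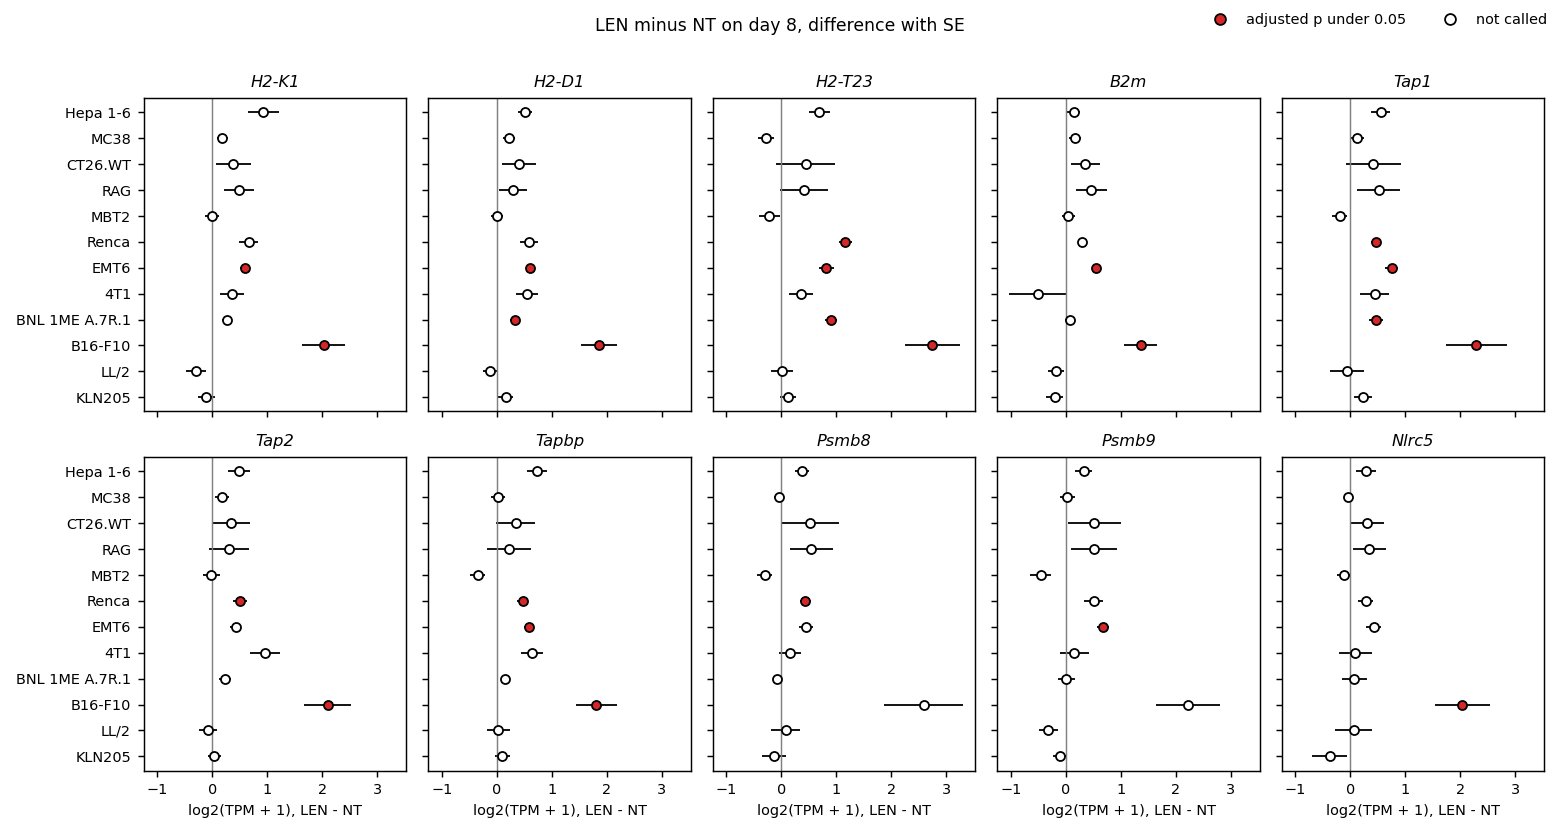
LEN minus NT difference in log2(TPM + 1) with its SE in each model, a panel for each member, where filled red points had an adjusted p under 0.05. B16-F10 has the highest point in every panel, and red points occur in B16-F10, EMT6, Renca and BNL.

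Within single models, 23 of the 120 gene and model pairs were called higher, in 4 models, against 3.56% of all gene and model pairs. Limma called 0 lower, against 1.3%, while 96 of 120 were above 0. In 41 pairs all 3 LEN tumors lay above all 3 NT tumors, against 13.5% of all pairs, in 3 they lay below, against 10.9%, and in 76 the groups overlapped. These calls rest on 3 tumors against 3, and leaving out single tumors changed their number to between 15 and 25.

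In B16-F10, 8 of 10 members were called higher, against 8.57% of genes, and the LEN tumors lay above the NT tumors for all 10 members, which was so for 20.3% of genes. H2-K1 was 96.3, 256 and 99.0 TPM in NT tumors 2, 4 and 5, and 692, 432 and 559 TPM in LEN tumors 2, 3 and 5. NT tumor 4 was the highest untreated tumor for every member, and LEN tumor 3 the lowest treated one, yet they did not overlap. The difference was 2.02 (SE 0.39, adjusted p = 0.0218). H2-D1 went from 134, 271 and 113 TPM to 742, 469 and 573 TPM, a difference of 1.86 (SE 0.33, adjusted p = 0.0176). H2-T23 had the largest difference of any member in any model, from 8.74, 30.0 and 8.25 TPM to 134, 66.1 and 92.2 TPM (2.75, SE 0.49, adjusted p = 0.0181). B2m went from 542, 1033 and 489.7 TPM to 2125, 1345 and 1632 TPM (1.36, SE 0.30, adjusted p = 0.0339). The Base tumors of this model had 135, 82.1 and 87.0 TPM of H2-K1 and 746, 535 and 549.9 TPM of B2m, within or close to the NT range and below every LEN tumor.

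The transporter genes of B16-F10 moved by similar amounts. Tap1 was 13.9, 47.2 and 9.42 TPM in NT and 129.6, 71.6 and 91.4 TPM in LEN (2.29, SE 0.55, adjusted p = 0.0440). Tap2 was 7.73, 17.3 and 4.51 TPM against 51.0, 30.5 and 40.9 TPM (2.09, SE 0.42, adjusted p = 0.0264). Tapbp was 40.5, 67.3 and 22.7 TPM against 175, 111 and 144 TPM (1.81, SE 0.37, adjusted p = 0.0275). Nlrc5 also rose, from 13.7, 43.9 and 9.68 TPM to 97.7, 64.0 and 74.7 TPM (2.04, SE 0.50, adjusted p = 0.0480). The immunoproteasome genes did not pass. Psmb8 was 10.5, 56.8 and 6.19 TPM in NT and 139, 77.6 and 92.5 TPM in LEN (2.58, SE 0.72, adjusted p = 0.0699). Psmb9 was 8.30, 35.6 and 7.12 TPM in NT and 92.0, 45.9 and 63.1 TPM in LEN (2.22, SE 0.58, adjusted p = 0.0563). Leaving out LEN tumor 2, LEN tumor 5 or NT tumor 2 left none of the 8 calls of B16-F10 (15 calls in all models in place of 23), while the direction held.

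**Figure D4:**
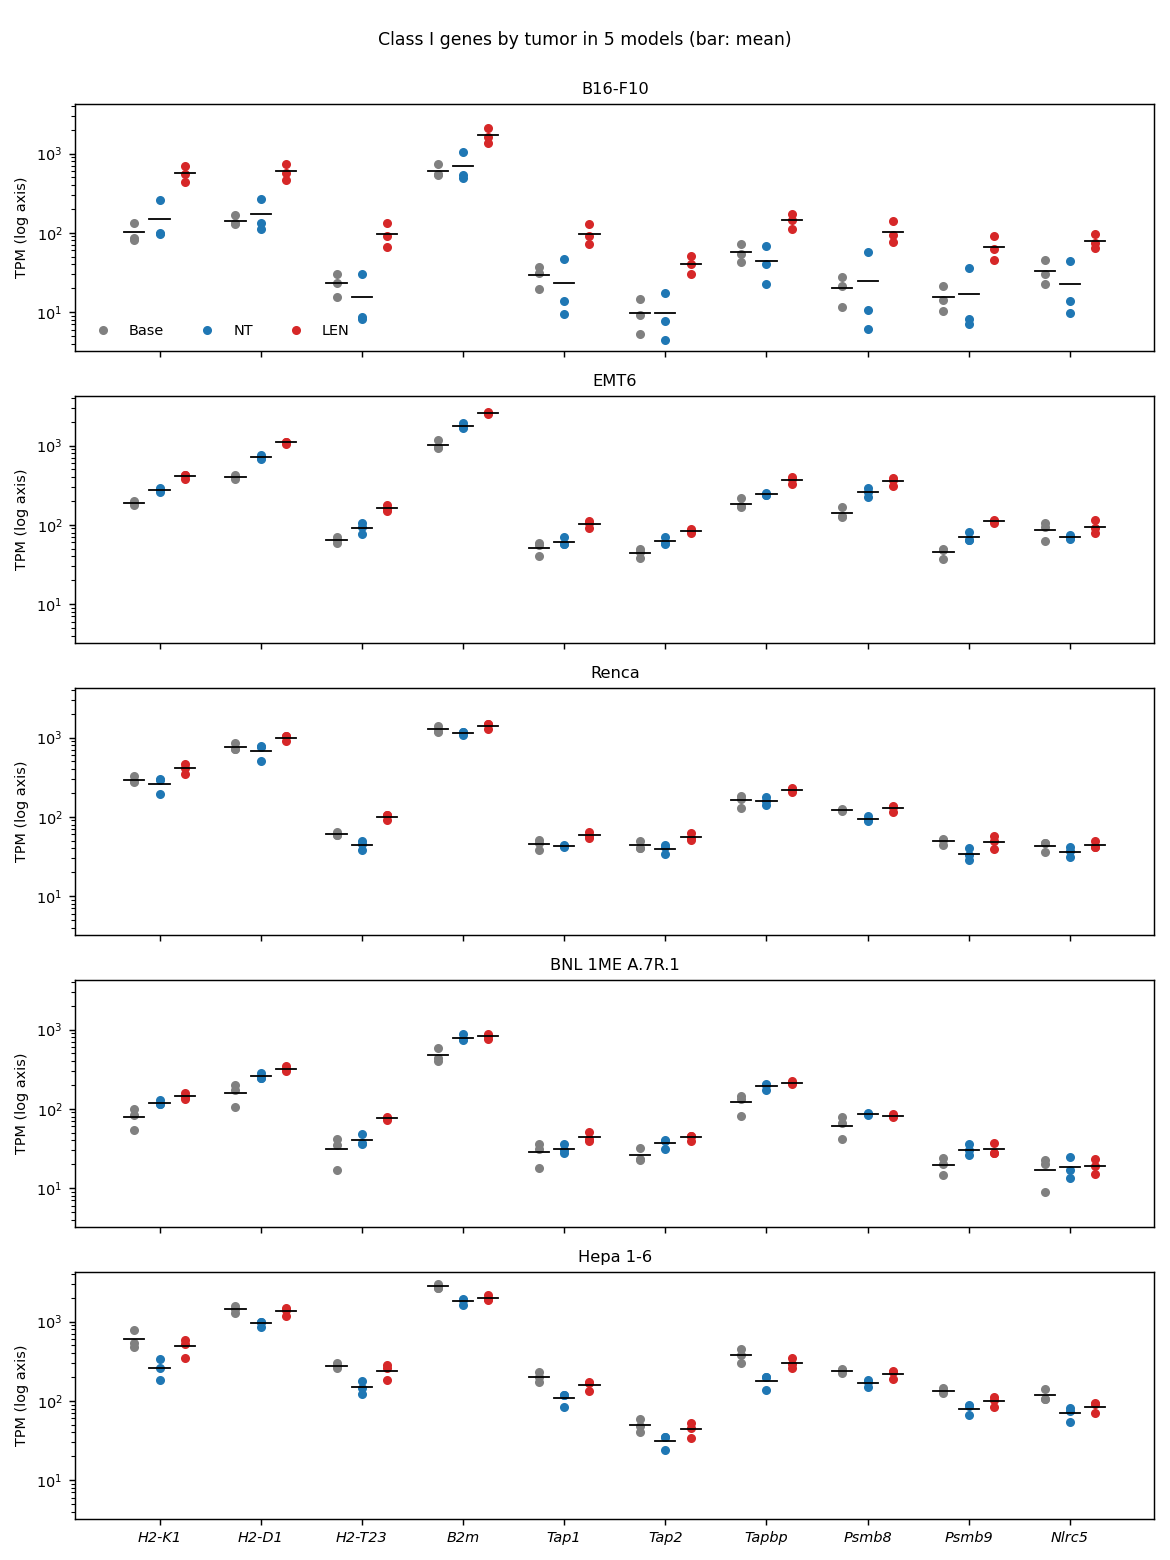
TPM of each member (log axis) in every tumor of B16-F10, EMT6, Renca, BNL and Hepa, with Base in grey, NT in blue and LEN in red and the mean of each group as a bar. In B16-F10 and EMT6 the LEN tumors lie above the NT tumors for all 10 members, and in Hepa the NT tumors lie below the Base tumors for all 10.

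EMT6 responded with smaller but uniform differences. Of the members, 7 were called higher, against 0.819% of genes, and again LEN lay above NT for all 10, against 16.4% of genes. H2-K1 was 289, 277 and 257 TPM in NT tumors and 428, 383 and 428 TPM in LEN tumors (0.59, SE 0.08, adjusted p = 0.0359). H2-D1 was 771, 697 and 685 TPM against 1119, 1059 and 1103 TPM (0.61, SE 0.07, adjusted p = 0.0287). B2m was 1932, 1699 and 1654 TPM against 2656, 2469.5 and 2588 TPM (0.55, SE 0.08, adjusted p = 0.0419). For these 3 genes the gap between the groups was wider than the spread within either group. H2-T23 was 105, 94.0 and 75.9 TPM against 159, 149 and 176 TPM (0.82, SE 0.13, adjusted p = 0.0462). Tap1 (0.75), Psmb9 (0.67) and Tapbp (0.59) also passed (adjusted p from 0.0444 to 0.0471), whereas Psmb8 (0.44, adjusted p = 0.154), Tap2 (0.43, 0.0998) and Nlrc5 (0.42, 0.195) did not. None of the 7 calls held when all models were fitted together, without the filter on low values, without the variance trend, or when the values were rescaled (by the upper quartile, or with the 50 most abundant genes left out), and leaving out any tumor ended 5 or more of them.

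In Renca, 5 of 10 members were called higher, against 4.91% of genes. H2-T23 was 45.8, 38.4 and 49.6 TPM in NT and 91.2, 104 and 107 TPM in LEN, so that the lowest treated tumor was well above the highest untreated one (1.16, SE 0.11, 2.24-fold, adjusted p = 0.00140). This call held in every alternative. Tap2 (0.50), Tapbp (0.47), Tap1 (0.46) and Psmb8 (0.43) also rose (adjusted p from 0.0160 to 0.0488). H2-K1 (0.66, adjusted p = 0.0589), H2-D1 (0.58, 0.0692), B2m (0.30, 0.0647), Psmb9 (0.50, 0.102) and Nlrc5 (0.27, 0.224) were not called. Leaving out LEN tumor 4, LEN tumor 5 or NT tumor 5 ended all of these calls but that of H2-T23. In BNL, 3 members were called, against 26.3% of genes, a share near the background. H2-T23 was 35.6, 47.8 and 37.4 TPM in NT and 76.9, 71.8 and 78.6 TPM in LEN, without overlap (0.91, SE 0.11, adjusted p = 0.00157). H2-D1 (0.32, adjusted p = 0.0219) and Tap1 (0.46, adjusted p = 0.0363) passed with the deposited scaling but not when the values were rescaled. The median of all genes in BNL was itself 0.17 higher in LEN. The median of all genes was also shifted in 4T1 (-0.19), Hepa (0.14) and LL/2 (-0.13).

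The other models had no call among the members by limma. In Hepa, LEN was above NT for 10 of 10 members, by 0.14 (B2m) to 0.93 (H2-K1), with adjusted p from 0.0977 to 0.488 (7 at an unadjusted p under 0.05), against 0.0423% of genes called higher. H2-K1 was 257, 182 and 341 TPM in NT and 595, 529 and 348 TPM in LEN, so the groups did not overlap but lay close together. The median differences were 0.44 in RAG, 0.39 in CT26, 0.36 in 4T1, 0.07 in MC38, -0.04 in KLN205, -0.07 in LL/2 and -0.16 in MBT2. The NT tumors of RAG and CT26 were widely spread. In RAG, H2-T23 was 96.1, 218 and 59.3 TPM in NT and 141, 183 and 115 TPM in LEN, and in CT26 it was 60.9, 91.6 and 18.3 TPM and 63.3, 67.0 and 62.0 TPM. In 4T1, LEN tumor 4 had 204 TPM of B2m against 768 and 839 TPM in the other LEN tumors, but the highest Tap2 of all 107 tumors (115 TPM against 65.2 and 64.3 TPM). In MC38, the model with the most H2-K1, H2-T23 went the other way, with 39.1, 57.9 and 41.5 TPM in NT and 35.5, 37.8 and 38.6 TPM in LEN, and did not pass. In these 7 models, limma called 0.0282% of all gene and model pairs higher and 0.0419% lower. At an unadjusted p under 0.05, 4T1 had 3 members and MBT2 2, and the other 5 models had 0.

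The immunoproteasome subunits were also compared with the subunits they replace, within each tumor. The log2 ratio of Psmb9 to Psmb6 was higher in LEN in 9 of 12 models, by 0.39 on average (SD 0.66 over models, two-sided exact sign-flip permutation p = 0.0283). The ratio of Psmb8 to Psmb5 was higher in 7 of 12 models, by 0.37 (SD 0.82, exact permutation p = 0.106). B16-F10 had the largest difference of both, at 2.23 and 2.68. Without it, the means were 0.22 (exact permutation p = 0.0566) and 0.15.

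Other genes of the pathway moved in the comparison of LEN with NT. Of all genes, 13.7% were called higher on average, 10.8% without B16-F10 and 8.57% within B16-F10. Of 11 other class I heavy chain genes tested, 11 were called higher in LEN on average (6 without B16-F10), with H2-Q6 (0.38), H2-Q4 (0.35), H2-T22 (0.33) and H2-T10 (0.33) among them, and these share sequence with the classical genes. Of 11 peptide processing and loading genes, 6 were called higher, led by Tapbpl (0.32), a tapasin relative, and Psmb10 (0.24), the remaining immunoproteasome subunit, and 1 without B16-F10. The constitutive subunits Psmb5, Psmb6 and Psmb7 had 0 of 3 calls by limma (-0.06 to 0.01, 0 at an unadjusted p under 0.05). Of 15 class I transcription genes, 6 were called higher, with Stat2 (0.36) and Irf1 (0.31), which carry interferon signals, and 3 without B16-F10. Of 9 interferon ligands, receptors and signalling genes, 4 were called higher, with Socs1, a feedback inhibitor, at 0.41, and 3 without B16-F10. In B16-F10 alone, 5 of 7 other heavy chains, 4 of 11 processing genes (Tapbpl by 1.75 and Erap1 by 1.59), 5 of 15 transcription genes (Irf8 by 2.42 and Irf1 by 2.01) and 4 of 8 interferon genes (Socs1 by 1.83) were called higher, and 0 of 3 constitutive subunits. For Ifng itself, the interferon gamma gene, the LEN mean was above the NT mean in 6 models and below it in 5, and the gene was listed at 0 in all NT and LEN tumors of KLN205. Its mean was 0.09 TPM in NT and 1.62 TPM in LEN tumors of B16-F10, 0.27 and 1.53 TPM in EMT6, and 3.75 and 5.40 TPM in Hepa. It was 1.27 and 1.04 TPM in CT26, 1.34 and 0.80 TPM in MC38, and 0.74 and 0.60 TPM in MBT2.

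Markers of immune cells moved with the members in some models and not in others. In B16-F10, the 8 T cell markers summed to 0.99 to 4.74 TPM in NT and 19.3 to 23.2 TPM in LEN, and all 6 that could be tested were called higher. NK cell markers summed to 0.50 to 2.81 and 9.40 to 10.1 TPM, macrophage markers to 72.9 to 109 and 244 to 356 TPM (7 of 7 called higher), and fibroblast markers to 89.7 to 109 and 279 to 387 TPM (6 of 6). Ptprc was 2.61 to 7.00 TPM in NT and 23.3 to 24.9 TPM in LEN. No T cell marker was at 0 in all tumors. Melanocyte markers were 7751 to 9125 and 8658 to 8894 TPM (0 of 4 called by limma), and endothelial markers fell in 4 of 6. Of the others tested, 1 of 1 NK cell marker and 1 of 3 neutrophil markers were called higher, and 0 of 3 dendritic cell markers were called. In EMT6, T cell markers were 4.18 to 6.88 TPM in NT and 8.87 to 20.0 TPM in LEN (0 of 5 called), and macrophage markers 500 to 603 and 508 to 812 TPM (0 of 7). Neutrophil markers there were 114 to 155 and 179 to 291 TPM, with 1 of 4 called higher (median difference 0.91), and 1 of 6 fibroblast markers was called higher. Limma called 0 of the 3 NK cell (median 0.81), 2 dendritic cell, 6 endothelial and 3 epithelial markers tested in EMT6, and not Ptprc. In Renca, immune cell markers differed in direction. Macrophage markers went from 803 to 908 TPM down to 376 to 413 TPM (6 of 7 called lower), and Ptprc from 34.5 to 35.5 TPM down to 17.5 to 19.4 TPM. Renca T cell markers were 5.14 to 5.55 TPM in NT and 8.43 to 10.5 TPM in LEN (Cd3d and Cd3e called higher and Cd4 lower, of 3 tested). Its neutrophil markers were 14.4 to 15.2 TPM in NT and 29.7 to 39.5 TPM in LEN (2 of 3 called higher), and all 6 endothelial markers were called lower. The NK cell, dendritic cell, fibroblast and epithelial markers tested in Renca had 0 calls. In BNL, T cell markers went from 7.37 to 10.6 TPM to 22.1 to 27.3 TPM (5 of 6 called higher), and epithelial markers from 15.6 to 37.2 TPM to 831 to 993 TPM (3 of 3), while 6 of 6 endothelial, 5 of 6 fibroblast and 1 of 7 macrophage markers were called lower. In BNL, Ptprc (30.7 to 34.4 TPM in NT, 46.6 to 67.8 TPM in LEN), 3 of 5 dendritic cell, 2 of 4 NK cell, 1 of 4 neutrophil markers and the 1 B cell marker tested were also called higher. Of all genes, 26.3% were called higher in BNL, near the share of its neutrophil markers. That share of all genes was 8.57% in B16-F10, 0.819% in EMT6 and 4.91% in Renca. On average over the models, 6 of 7 T cell, 2 of 3 NK cell, 1 of 4 dendritic cell, 4 of 4 neutrophil and 3 of 4 epithelial markers tested were called higher. The epithelial markers had a median of 0.41, against 0.42 for the members. Their average includes the large rise in BNL given above, while EMT6 and Renca had no epithelial call. Of the macrophage markers 6 of 7 and of the endothelial markers 6 of 6 were lower, fibroblast markers had 1 higher and 1 lower of 6, and Ptprc and the 4 hepatocyte and 4 melanocyte markers had no call. In this average, 13.7% of all genes were called higher and 9.87% lower. The part of these cells in the class I differences was not tested.

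Untreated tumors on day 8 were then compared with Base tumors. This comparison shares the NT tumors with that of LEN and NT, so its values are given on their own. Limma called 0 of 10 members on average over the models (0 at an unadjusted p under 0.05, adjusted p from 0.249 to 0.945), against 17% of genes called higher and 11.5% called lower. The mean differences of NT minus Base ran from -0.17 (SE 0.11) for H2-T23 to 0.10 (SE 0.07) for H2-D1. They differed between models for 5 of 10 members in the F test, H2-D1 (adjusted p = 0.00206), H2-K1 (0.00526), B2m (0.0116), Tapbp (0.0160) and H2-T23 (0.0337), against 66.5% of genes, and for 0 of 10 when the values were rescaled. Without Hepa the F test called 1, and without EMT6 3. Within models, 17 of 120 pairs were called higher, in EMT6, BNL and KLN205, against 6.33% of all gene and model pairs. Limma called 0 lower, against 1.69%, while 53 of 120 were above 0. The groups did not overlap in 20 pairs with NT above Base, against 17.1% of all pairs, and in 23 with NT below, against 13.9%.

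The differences were of opposite sign in EMT6 and Hepa. In EMT6, 8 of 10 members rose, against 17.2% of genes. H2-D1 was 374, 424 and 398 TPM at Base and 771, 697 and 685 TPM in NT, so every NT tumor was above every Base tumor (0.85, SE 0.08, adjusted p = 0.00281). B2m was 950.3, 1170.4 and 944 TPM and then 1932, 1699 and 1654 TPM (0.79, SE 0.11, adjusted p = 0.00571). Psmb8 (0.90), Psmb9 (0.61), H2-K1 (0.53), H2-T23 (0.49), Tap2 (0.49) and Tapbp (0.39) also rose. Tap1 (0.26, adjusted p = 0.275) and Nlrc5 (-0.28, adjusted p = 0.318) did not pass, and 5 of the 8 calls ended when the values were rescaled. Other gene lists had calls in EMT6 too. All 3 constitutive proteasome subunits were called higher (median 0.83, against 0.51 for the members), as were 6 of 11 processing genes and 7 of 10 other heavy chains. Of its 7 macrophage markers 0 were called higher and 1 lower, of 4 neutrophil markers 2 were lower, of 3 dendritic cell markers 1 was lower, and of 3 epithelial markers 2 were higher and 1 lower. In Hepa, the model with the highest levels at Base, all 10 members were lower in NT, without overlap, which was so for 28.5% of genes. H2-K1 was 536, 474 and 787 TPM at Base and 257, 182 and 341 TPM in NT (-1.21, SE 0.27, adjusted p = 0.0653). The other members lay between -1.06 (Tapbp) and -0.51 (Psmb8). None of the 10 was called by limma (adjusted p from 0.0554 to 0.104, and 10 at an unadjusted p under 0.05), against 0.27% of genes called lower. Without Base tumor 2, 8 were called lower, and without NT tumor 4, 7. The share of all genes called lower in those fits was not computed, so these counts have no background beside them. The median of all genes in Hepa was -0.20, and none of its 7 macrophage markers (median -1.05) or 8 T cell markers (median -0.47) was called.

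**Figure D5:**
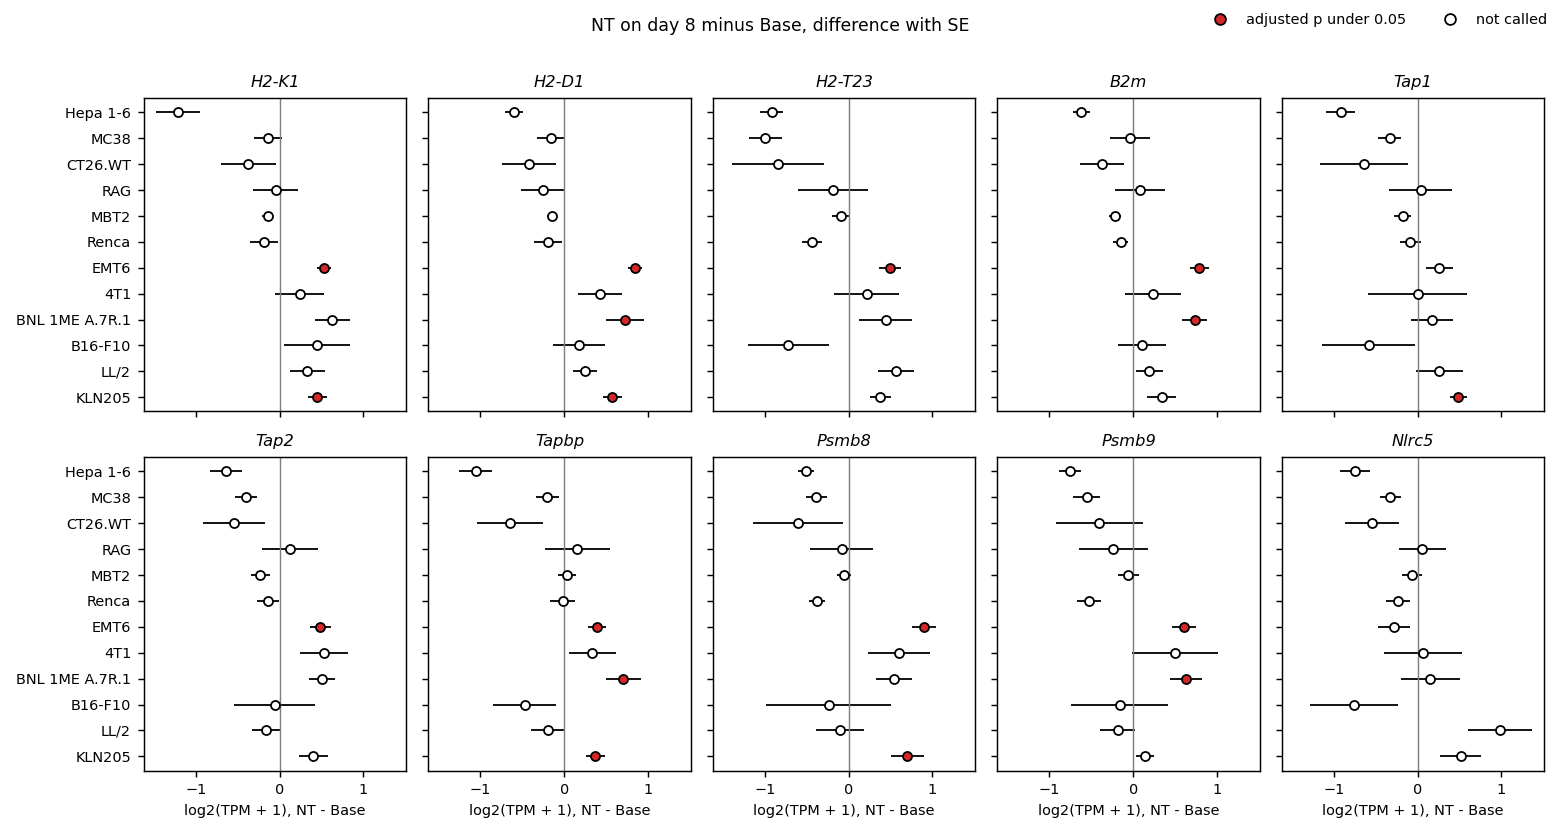
NT minus Base difference in log2(TPM + 1) with its SE in each model, a panel for each member, where filled red points had an adjusted p under 0.05. Red points occur in EMT6, BNL and KLN205 only, all above 0, and Hepa lies below 0 in all 10 panels.

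BNL and KLN205 had further increases. In BNL, B2m (0.73, limma adjusted p = 0.0124), H2-D1 (0.73, 0.0492), Tapbp (0.71, 0.0452) and Psmb9 (0.63, 0.0475) rose from Base to NT, which was 4 of 10 members against 23.6% of genes. B2m went from 406, 593 and 441 TPM to 770.4, 869 and 734 TPM, without overlap. Macrophage markers in BNL summed to 327 to 526 TPM at Base and 1038 to 1072 TPM in NT (5 of 7 called higher), and fibroblast markers to 4663 to 4977 and 9069 to 10538 TPM (5 of 6 called higher). Epithelial markers summed to 128 to 166 TPM at Base and 15.6 to 37.2 TPM in NT (3 of 3 called lower), while 2 of 6 endothelial markers were higher and 1 lower and the other immune cell lists had 0 calls. The part of these cells in the BNL differences was not tested. In KLN205, the model with the lowest class I levels, 5 of 10 rose, against 28.3% of genes, and the median of all genes was itself 0.28 higher. H2-D1 was 59.5, 62.2 and 59.4 TPM at Base and 82.0, 82.9 and 109 TPM in NT (0.58, SE 0.12, adjusted p = 0.0165), so even the highest NT tumor stayed below the mean Base level of every other model. The constitutive subunits were also called higher in KLN205 (3 of 3, median 0.62, against 0.43 for the members), as were 8 of 11 processing genes, 2 of 4 epithelial markers and 1 of 7 macrophage markers. All 5 KLN205 calls ended when the values were rescaled, and also without NT tumor 3. Of the BNL calls, 3 of 4 ended when rescaled. The remaining 8 models had 0 calls by limma, against 0.644% of their gene and model pairs called higher and 1.27% lower, with 5 members at an unadjusted p under 0.05 in MC38, 3 in Renca, 2 each in LL/2 and MBT2, and 0 in 4T1, B16-F10, CT26 and RAG, beside the 10 in Hepa. The other pathway genes were also tested in the average of NT minus Base, where 17% of all genes were called higher and 11.5% lower. Of the 11 other class I heavy chains 1 was lower (H2-T24, -0.25), of 11 processing genes 5 were higher with the chaperone Hspa5 at 0.25, and of 15 transcription genes 2 were higher and 3 lower (Ciita at -0.49, Irf8 at -0.45 and Irf1 at -0.29). Of 9 interferon genes 1 was lower (Socs1, -0.61), and 2 of 3 constitutive subunits were higher (Psmb5 by 0.09). In the same average no cell marker was called higher, and those called lower were 3 of 7 T cell, 3 of 3 NK cell, 4 of 4 dendritic cell, 2 of 4 neutrophil, 2 of 7 macrophage, 5 of 6 endothelial, 2 of 6 fibroblast, 1 of 4 epithelial and 1 of 4 melanocyte markers and Ptprc (-0.35).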

How the data were processed

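RNA was sequenced from 107 tumors with rRNA-depleted libraries. Per the labels and the study's methods, the authors trimmed reads with Trimmomatic 0.36, aligned them with STAR 2.5.2b to mm10 and estimated expression with RSEM 1.2.31. The deposited values are TPM for 50686 genes, and each tumor sums to the same total by construction, so read depth is unknown. Groups came from the sample labels. Genes whose TPM averaged 1 or more over the tumors of a fit were tested, as log2(TPM + 1), with limma 3.58.1 (R 4.3.3, eBayes with a variance trend). Benjamini-Hochberg adjustment ran over all genes tested with a threshold of 0.05, and all 10 members passed the filter in every fit. Within-model fits used that model's tumors alone, and tests over models used all tumors of both arms. Ratios were compared by an exact sign-flip permutation test over the 12 models. The limma test was checked on simulated data with independent normal noise and, for each gene, the same spread in all groups. Shifts shared by the genes of a tumor and unequal spread between models were not simulated, so the check does not cover them. The members, the 5 pathway lists and the cell markers were chosen with earlier results of these data known. Pathway genes are named where they passed with the largest changes. The 8 genes most similar to the members were named by Pearson r over Base means. H2-L had no row. B cell markers had no gene above the filter in the tests over models. Alternatives were a pseudocount of 0.1, a TPM minimum of 5 or none, no variance trend, a pooled fit, 2 rescalings, a replicate block and leaving out each tumor or model.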

Additional observations from a re-analysis of the deposited data

Results flagged for a closer look

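The LEN minus NT difference varied between the 12 models for all 10 members (limma F test, adjusted p over all genes). The adjusted p was 2.25e-04 for H2-K1, 2.68e-04 for H2-D1, 1.44e-04 for H2-T23, 0.0201 for B2m, 0.0126 for Tap1, 0.00119 for Tap2, 0.00247 for Tapbp, 0.00330 for Psmb8, 0.00312 for Psmb9 and 0.00946 for Nlrc5. None of the 10 passed without B16-F10.

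The NT minus Base difference varied between models for 5 members, with an adjusted p of 0.00526 for H2-K1, 0.00206 for H2-D1, 0.0337 for H2-T23, 0.0116 for B2m and 0.0160 for Tapbp. None of these passed when the values were rescaled. EMT6 lay above 0 and Hepa below 0 for each of these 5 genes.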

How the results depend on the processing

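No value changed sign against a call. Members called higher in LEN within models numbered 23 with the deposited values, 14 with all 72 tumors fitted together, 7 without the filter on low values, 9 without the variance trend, 17 after either rescaling and 15 to 25 when a tumor was left out. After either rescaling 1 pair was called lower (Psmb8 in BNL) in place of 0. On average over models, 6 were called higher in LEN without B16-F10 in place of 10, and the F test between models then called 0. Members called higher in NT than in Base within models numbered 17, then 4 with all 71 tumors fitted together, 7 without the filter, 9 without the trend, 4 after either rescaling and 12 to 20 with a tumor left out. Those called lower numbered 0, then 2 in the fit of all tumors, 9 with a TPM minimum of 5, 4 with a pseudocount of 0.1 and 0 to 8 with a tumor left out. For these alternative counts within models, the share of all genes called was not computed. The F test between models for NT minus Base called 5, then 0 after either rescaling, 3 without EMT6, 1 without Hepa and 4 to 8 with a tumor left out. The Psmb8 to Psmb5 ratio passed without BNL (0.45, exact permutation p = 0.0234). The Psmb9 to Psmb6 ratio did not pass without B16-F10 (0.22, p = 0.0566), CT26 (0.38, p = 0.0527), EMT6 (0.36, p = 0.0566), RAG (0.38, p = 0.0527) or Renca (0.37, p = 0.0566), by the exact permutation test. Apart from fewer tumors or genes in the fit, the cause was not tested.

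Tumor numbers did not pair the tumors, since deviations of tumors with the same number correlated between -0.0762 and 0.0763 for LEN and NT (20 pairs) and between -0.143 and 0.103 for NT and Base (25 pairs). With the replicate block, 10 of 10 members were called higher in LEN on average (B2m at 0.21, adjusted p = 0.0380) and 0 in NT minus Base, which changed no call.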
